A study of Homo sapiens with 6 samples.

Results

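The genes described here are 10 transcripts that ERK, the last kinase of the RAS-RAF-MEK-ERK cascade, is known to induce. They comprise the MAP kinase phosphatase genes DUSP4, DUSP5 and DUSP6, the Sprouty genes SPRY1, SPRY2 and SPRY4, the Sprouty-related genes SPRED1 and SPRED2, and the ETS transcription factor genes ETV4 and ETV5. They were taken by gene symbol from a table of 60664 genes, and each of the 10 symbols was found once. All 10 passed the filter on low counts, which left 15900 genes for testing.

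RNA was sequenced from PC9OR, a lung cancer cell line, in 3 control libraries labelled NC and 3 libraries labelled si-GLMP, in which GLMP was knocked down. GLMP encodes a glycosylated protein of the lysosomal membrane, and the series title ties it to resistance against EGFR kinase inhibitors. No drug, time point, passage or siRNA sequence stands in the labels, and nothing there tells if replicates came from separate cultures. The p-values therefore reflect only how far these libraries scatter, and that scatter may be technical.

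EGFR and other receptors feed signal into RAS, which activates RAF, MEK and ERK in turn. Active ERK raises transcription of its own inhibitors. Dual-specificity phosphatases remove the activating phosphates from ERK, DUSP5 in the nucleus and DUSP6 in the cytoplasm, whereas Sprouty and SPRED proteins act further up, at RAS and RAF. ETV4 and ETV5 are transcription factors of the PEA3 group, whose genes are held down by the repressor CIC until ERK inactivates it. In EGFR-mutant lung cancer cells the transcripts of this set are commonly read as a gauge of ERK output.

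Library totals ran from 19896875 to 22372878 counts. GLMP itself went from 309, 344 and 347 counts under NC to 82, 61 and 65 under si-GLMP. Levels below are in CPM, counts scaled to a common library total, after adjustment by TMM, a method that sets libraries to a common composition. Mitochondrially encoded mRNAs took 6.55%, 8.73% and 6.49% of the counts under NC, against 5.18%, 5.49% and 5.31% under si-GLMP, so this share was lower in every si-GLMP library. The 6 epithelial markers summed to between 9110 and 9380 CPM in NC and between 8300 and 9290 CPM in si-GLMP. Most of that sum was keratin, and its members went different ways: EPCAM (440 to 476 CPM in NC, 532 to 620 in si-GLMP) and CDH1 (300 to 345 and 376 to 405) were higher in every si-GLMP library, and KRT7 (2320 to 2460 and 1840 to 2160) was lower in every one. The lung lineage markers NKX2-1, NAPSA and SFTPB were at or near the floor of detection, with at most 0.577 CPM for any of them in a library. Of 4 leukocyte markers, LYZ and TYROBP were at 0 throughout and the list summed to at most 0.251 CPM. The 4 fibroblast markers summed to 5.99 to 7.48 CPM in NC and 10.5 to 12.4 CPM in si-GLMP, mostly from COL1A1, with DCN at 0 in every si-GLMP library. The 3 endothelial markers summed to 4.82 to 7.68 CPM in NC and 6.78 to 7.59 CPM in si-GLMP. The part of these other markers in the results was not tested.

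The 10 genes did not move as 1 block after GLMP knockdown. DUSP5 and DUSP4 rose, SPRED2, ETV5 and SPRY1 fell, and the other 5 did not pass the test (quasi-likelihood test of edgeR, p adjusted by Benjamini-Hochberg over all tested genes and under 0.05). Thus 5 of 10 were called, against 23.3% of all tested genes, with 2 higher against a background of 12.0% and 3 lower against 11.3%. The 2 higher genes became 1 when NC replicate 1, 2 or 3 or si-GLMP replicate 1 or 3 was left out. The same held with RLE scaling, with no filter on low counts and with mitochondrially encoded genes removed. Leaving out a library also lowered the count higher over all tested genes, from 1910 to between 1482 and 1788. The median log2 fold change of the 10 was -0.03 and the median absolute change was 0.17, beside 0.00 and 0.18 over all tested genes. In 7 of the 10 no NC library crossed the range of the si-GLMP libraries in CPM, as in 36.5% of all tested genes. No test of the set was made. The 10 genes and the lists below were chosen with earlier results of these data known, so shares above the background are not independent support. Less RNA per cell and fewer cells that express a gene cannot be told apart in such bulk samples.

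**Figure D1:**
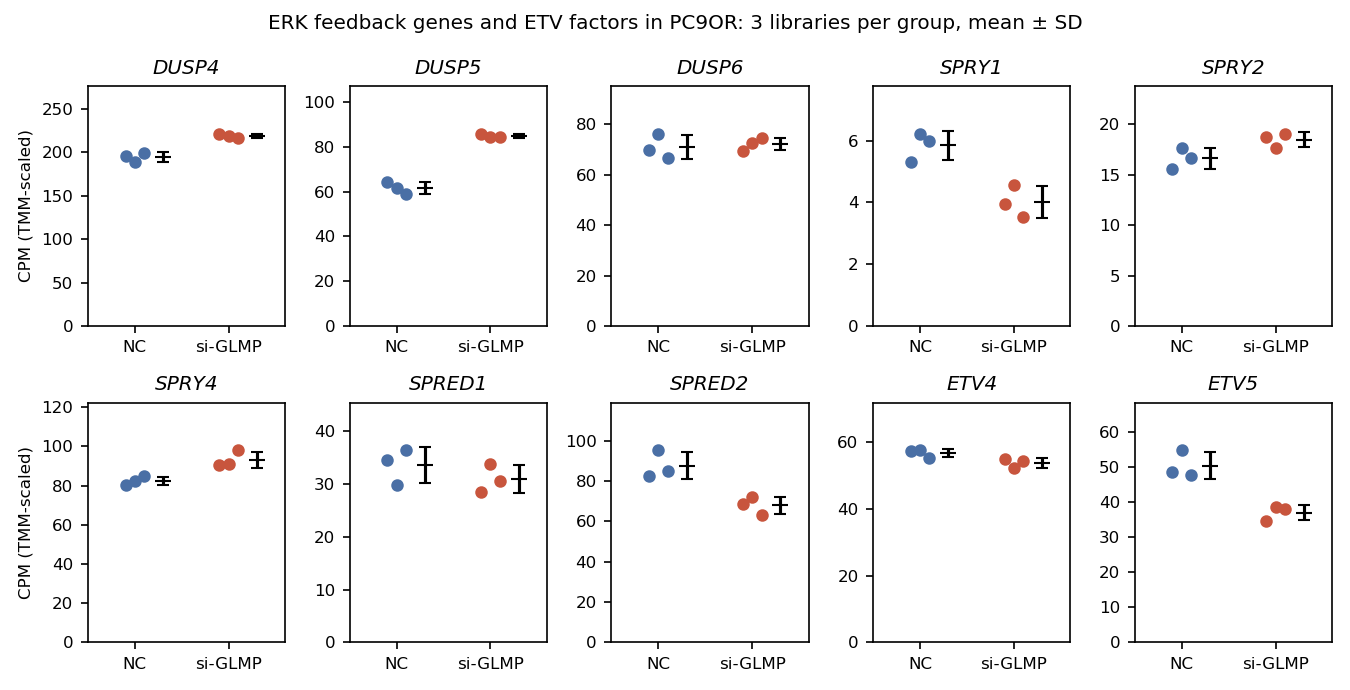
CPM (TMM-scaled, axes from 0) of the 10 genes in the 3 NC libraries (blue) and 3 si-GLMP libraries (red), with the mean ± SD of each group in black. DUSP5 lies higher in all 3 si-GLMP libraries and SPRED2, ETV5 and SPRY1 lie lower, whereas DUSP6, SPRY2 and SPRED1 overlap between the groups.

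Among the phosphatases, DUSP5 (ENSG00000138166; GRCh38 chromosome 10, 110497838 to 110511544, plus strand) rose most. It stood at 64.2, 61.8 and 58.9 CPM under NC, given here and below in the order of the replicates, against 85.8, 84.5 and 84.5 CPM under si-GLMP. The si-GLMP libraries lay close together and far above the NC libraries. The means were 61.7 ± 2.67 and 84.9 ± 0.754 CPM (SD, n = 3 each), which is a rise of 37.8% and a log2 fold change of 0.46 (edgeR: SE 0.07, adjusted p = 1.17e-06). DUSP5 has a pseudogene copy, DUSP5P1, which held only 35 counts summed over NC and 24 over si-GLMP.

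DUSP4 (ENSG00000120875; chromosome 8, 29333064 to 29350668, minus strand), a nuclear phosphatase with ERK, JNK and p38 among its substrates, drew the most reads of the 10 and rose slightly. Its levels were 195.3, 188.5 and 199.6 CPM under NC, against 221.1, 219.3 and 216.6 CPM under si-GLMP, with no overlap. The means were 194.5 ± 5.60 and 219.0 ± 2.27 CPM (SD, n = 3 each), and the log2 fold change was 0.17 (edgeR: SE 0.06, adjusted p = 0.0429). This call was marginal. It was lost in 8 of 15 alternative settings, among them 5 of the 6 that left out a library. Dropping NC replicate 1, 2 or 3 gave adjusted p of 0.136, 0.124 and 0.0815 by edgeR, and dropping si-GLMP replicate 1 or 3 gave 0.0738 and 0.0781. With mitochondrially encoded genes removed it was 0.0562 by edgeR. The log2 fold change kept between 0.15 and 0.21 over all 15.

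DUSP6 (ENSG00000139318; chromosome 12, 89347232 to 89353271, minus strand), the cytoplasmic ERK phosphatase, showed no detectable difference. It had 69.9, 76.2 and 66.8 CPM under NC, against 69.5, 72.5 and 74.4 CPM under si-GLMP, so the groups overlapped throughout. The log2 fold change was 0.02 (edgeR: SE 0.07, adjusted p = 0.858), with a 95% interval from -0.12 to 0.17 (intervals here are for single genes, not adjusted for the number tested). The upper end of that interval lies below the lower end of the DUSP5 interval, 0.32. In GENCODE 29, 40.48% of the DUSP6 exonic length is covered by an antisense gene, ENSG00000274021, which held between 1 and 5 counts per library. No source used here says whether counting used strand.

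Of the Sprouty genes, 1 was called. SPRY1 (ENSG00000164056; chromosome 4, 123396795 to 123403760, plus strand) fell, and it was the least abundant of the 10 per exon length. It drew 106, 127 and 135 reads under NC, against 81, 97 and 73 under si-GLMP, or 5.32, 6.21 and 5.99 CPM against 3.96, 4.57 and 3.54 CPM. The groups did not overlap, but single libraries were imprecise at this depth. NC replicate 1 had an exact Poisson 95% interval of 4.36 to 6.44 CPM and si-GLMP replicate 2 one of 3.71 to 5.58 CPM, which cover counting error only. The means were 5.84 ± 0.464 and 4.02 ± 0.522 CPM (SD, n = 3 each), and the log2 fold change was -0.54 (edgeR: SE 0.16, adjusted p = 0.0123). The call was lost when NC replicate 2 (edgeR adjusted p = 0.0522) or si-GLMP replicate 3 (0.0909) was left out, at -0.49 and -0.45 on the log2 scale.

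SPRY4 (ENSG00000187678; chromosome 5, 142310427 to 142326455, minus strand), the most abundant of these Sprouty genes per exon length, was not called, although its groups did not overlap. Its levels were 80.5, 82.4 and 84.6 CPM under NC, against 90.6, 90.9 and 97.9 CPM under si-GLMP. The log2 fold change of 0.17 ± 0.07 (SE) had an edgeR adjusted p of 0.0632 and a 95% interval from 0.04 to 0.31. DUSP4, which passed, had the same log2 fold change to 2 decimals, so the 2 genes lie on either side of the threshold by a narrow margin. Its adjusted p passed once si-GLMP replicate 2 was left out (0.0377 by edgeR), with upper-quartile scaling (0.0490), with the replicate number as a block (0.0450) and with the trend on GC content and length removed (0.00343).

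SPRY2 (ENSG00000136158; chromosome 13, 80335976 to 80340951, minus strand), which binds CBL and thereby slows removal of EGFR, was not called. It had 15.6, 17.7 and 16.6 CPM under NC, against 18.8, 17.6 and 19.0 CPM under si-GLMP. The groups touched, since NC replicate 2 and si-GLMP replicate 2 were almost level. The log2 fold change was 0.15 (edgeR: SE 0.10, adjusted p = 0.316), with a 95% interval from -0.05 to 0.36.

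Of the SPRED genes, whose products bring the RAS-inactivating protein neurofibromin to the membrane, SPRED2 (ENSG00000198369; chromosome 2, 65310851 to 65432637, minus strand) fell. It had 82.5, 95.1 and 85.0 CPM under NC, against 68.5, 71.9 and 63.4 CPM under si-GLMP. Every si-GLMP library lay under every NC library. The means were 87.5 ± 6.66 and 67.9 ± 4.28 CPM (SD, n = 3 each), and the level fell by 22.4%, with a log2 fold change of -0.37 (edgeR: SE 0.07, adjusted p = 0.00013). SPRED1 (ENSG00000166068; chromosome 15, 38252326 to 38357249, plus strand) was not called. It had 34.5, 29.7 and 36.3 CPM under NC, against 28.4, 33.7 and 30.6 CPM under si-GLMP, which overlapped. Its log2 fold change was -0.12 (edgeR: SE 0.09, adjusted p = 0.381), with a 95% interval from -0.29 to 0.06. It ran from -0.05 without NC replicate 3 to -0.20 without NC replicate 2, and was -0.06 without si-GLMP replicate 1, passing the threshold in no setting.

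Stretches ahead of the starts of SPRED2 and SPRY1 are printed here because these are the 2 feedback inhibitors that fell and have windows in the RefSeq promoter table (GRCh38.p14). The first runs from 250 to 51 bases before the outer SPRED2 start (chr2:65432650-65432849, minus strand). The second runs from 100 bases before to 10 bases after an inner SPRED2 start (chr2:65366769-65366878, minus strand). The third runs from 250 to 51 bases before the outer SPRY1 start (chr4:123396545-123396744, plus strand). All are written 5′ to 3′ on the strand of the gene, and capitals mark the heptamer TGACTCA bound by AP-1, the FOS and JUN dimer that ERK also raises.
SPRED2 outer start: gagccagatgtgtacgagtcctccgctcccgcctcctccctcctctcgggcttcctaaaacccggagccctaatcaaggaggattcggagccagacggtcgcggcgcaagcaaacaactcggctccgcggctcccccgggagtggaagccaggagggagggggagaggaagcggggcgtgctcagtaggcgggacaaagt
SPRED2 inner start: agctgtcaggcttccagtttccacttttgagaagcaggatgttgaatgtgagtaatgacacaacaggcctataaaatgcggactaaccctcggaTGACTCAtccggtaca
SPRY1 outer start: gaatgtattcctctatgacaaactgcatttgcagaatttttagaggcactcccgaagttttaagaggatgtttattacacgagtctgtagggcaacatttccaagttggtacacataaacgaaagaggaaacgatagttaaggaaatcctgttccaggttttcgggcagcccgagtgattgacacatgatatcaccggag

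The outer SPRED2 stretch was rich in G and C (65.5%), and the SPRY1 stretch was not (42.0%). The table held 10 windows of 300 bases, each with 250 bases before and 50 after a start, for 6 of the 10 genes. DUSP4, DUSP5, ETV4 and ETV5 had no entry. The octamers TGAATGAA and TGAATGGA, which CIC binds, were searched on both strands. They were in 0 of these 10 windows, and in 1.65% and 1.03% of all 35116 windows. The AP-1 heptamer, chosen after the sequences were seen, was in 1 of the 10, the inner SPRED2 window, and in 4.95% of all windows. A match is a string of letters in a window and does not show a bound site. Gene-level counts do not tell which SPRED2 start was used.

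ETV5 (ENSG00000244405; chromosome 3, 186046308 to 186110318, minus strand) fell by 26.5%. Its levels were 48.7, 54.8 and 47.7 CPM under NC, against 34.6, 38.5 and 37.9 CPM under si-GLMP, with a wide gap between the groups. The means were 50.4 ± 3.81 and 37.0 ± 2.14 CPM (SD, n = 3 each), and the log2 fold change was -0.44 (edgeR: SE 0.08, adjusted p = 2.92e-05). ETV4 (ENSG00000175832; chromosome 17, 43527844 to 43579620, minus strand), its close relative, was not called. It had 57.3, 57.6 and 55.5 CPM under NC, against 55.0, 52.2 and 54.4 CPM under si-GLMP. All si-GLMP values were under all NC values, but by a small step, with a log2 fold change of -0.08 (edgeR: SE 0.08, adjusted p = 0.520) and a 95% interval from -0.22 to 0.07. ETV1, the remaining gene of the PEA3 group, was too low to be tested, with 30 counts summed over NC and 16 over si-GLMP. Exon overlap with other genes was small for both, 2.83% of ETV5 with DGKG and 1.89% of ETV4 with DHX8.

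**Figure D2:**
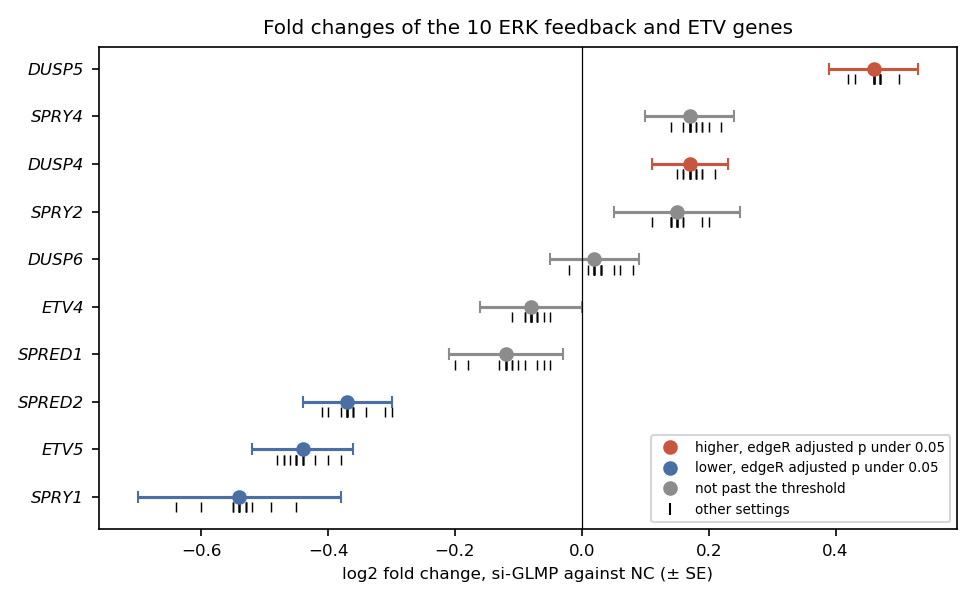
Log2 fold change of each of the 10 genes, si-GLMP against NC (point, ± SE), coloured by the edgeR call, with black ticks for the 15 alternative settings. DUSP5 at 0.46 and SPRED2, ETV5 and SPRY1 between -0.37 and -0.54 stand clear of 0, and only the ticks of DUSP6 lie on both sides of 0.

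Levels were compared between genes only after division by the exonic length of each gene in GENCODE 29, as CPM per kilobase. In NC the order was led by DUSP4 at 26.8 ± 0.772 and DUSP5 at 23.6 ± 1.02 CPM per kilobase (SD, n = 3 each). SPRED2 (17.0 ± 1.29), ETV4 (15.7 ± 0.318), DUSP6 (15.3 ± 1.03) and SPRY4 (12.6 ± 0.315) formed a middle group. In it DUSP6 (14.4 to 16.4) overlapped with both ETV4 (15.4 to 16.0) and SPRED2 (16.0 to 18.4). ETV5 followed at 8.68 ± 0.657, SPRY2 at 5.47 ± 0.346, SPRED1 at 4.06 ± 0.414 and SPRY1 at 1.47 ± 0.117 CPM per kilobase. In si-GLMP, DUSP5 led at 32.5 ± 0.288, ahead of DUSP4 at 30.2 ± 0.313, and their libraries did not overlap. DUSP6, ETV4 and SPRY4 then each overlapped with the next in order. SPRED2, which headed that group in NC, came last in it at 13.2 ± 0.831 and did not overlap with ETV5. ETV5, at 6.38 ± 0.369, overlapped with SPRY2 at 6.08 ± 0.245 CPM per kilobase. The order depends on the exonic lengths, since transcripts in use may be shorter.

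**Figure D3:**
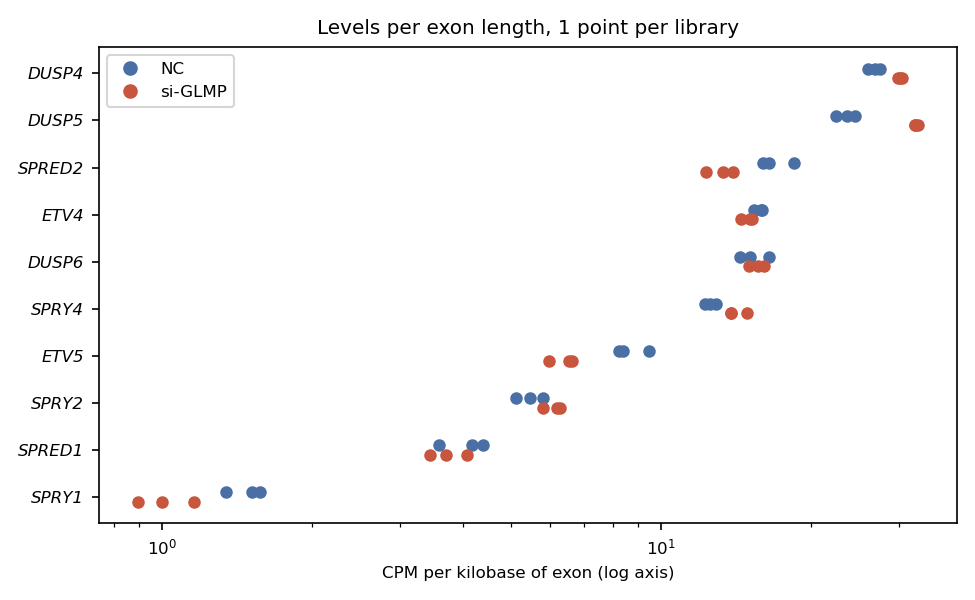
CPM per kilobase of exon (log axis) of the 10 genes, ordered by their NC mean, with 1 point for each NC (blue) and si-GLMP (red) library. DUSP4 and DUSP5 lie at the top between 22.5 and 32.8, and SPRY1 lies lowest, between 0.892 and 1.57.

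Ratios between relatives within a library do not depend on how libraries are scaled, and 8 pairs were compared. Raw counts of DUSP5 were below those of DUSP6 in each NC library, with ratios of 0.919, 0.812 and 0.882. They were above those of DUSP6 in each si-GLMP library, with ratios of 1.23, 1.17 and 1.14. The log2 ratio rose by 0.44 (exact two-sided permutation p = 0.1, adjusted 0.16). Per kilobase of exon DUSP5 stood above DUSP6 in both groups, at 23.6 and 15.3 CPM in NC and 32.5 and 15.6 in si-GLMP. The crossing in raw counts is therefore not a change of order per exon length. DUSP5 also gained on DUSP4, by 0.29 on the log2 scale, with the 3 si-GLMP ratios between 0.386 and 0.390. The raw counts of ETV4 and ETV5 were near parity in NC, with ratios from 1.05 to 1.18. The ratios ranged from 1.35 to 1.59 in si-GLMP, a log2 difference of 0.37. Per kilobase of exon ETV4 was already above ETV5 in NC, at 15.7 and 8.68 CPM. SPRY1 lost ground to both SPRY2 (-0.69) and SPRY4 (-0.71). These 5 pairs did not overlap between the groups and each had an exact permutation p of 0.1, adjusted 0.16. The raw value is the smallest that 3 against 3 libraries can give. DUSP5 and SPRY1 recur among these pairs, so they are not separate results.

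The other 3 pairs overlapped. SPRY4 to SPRY2 differed by less than its spread, with log2 means of 2.31 ± 0.0792 in NC and 2.33 ± 0.0540 in si-GLMP (SD, n = 3 each; exact permutation p = 0.7). DUSP4 to DUSP6 differed by 0.15 (exact permutation p = 0.2), or by 0.07 without NC replicate 2. SPRED1 to SPRED2 differed by 0.25 (exact permutation p = 0.3), and this fell to 0.10 without NC replicate 2, whose SPRED1 was the lowest and SPRED2 the highest of the NC libraries.

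**Figure D4:**
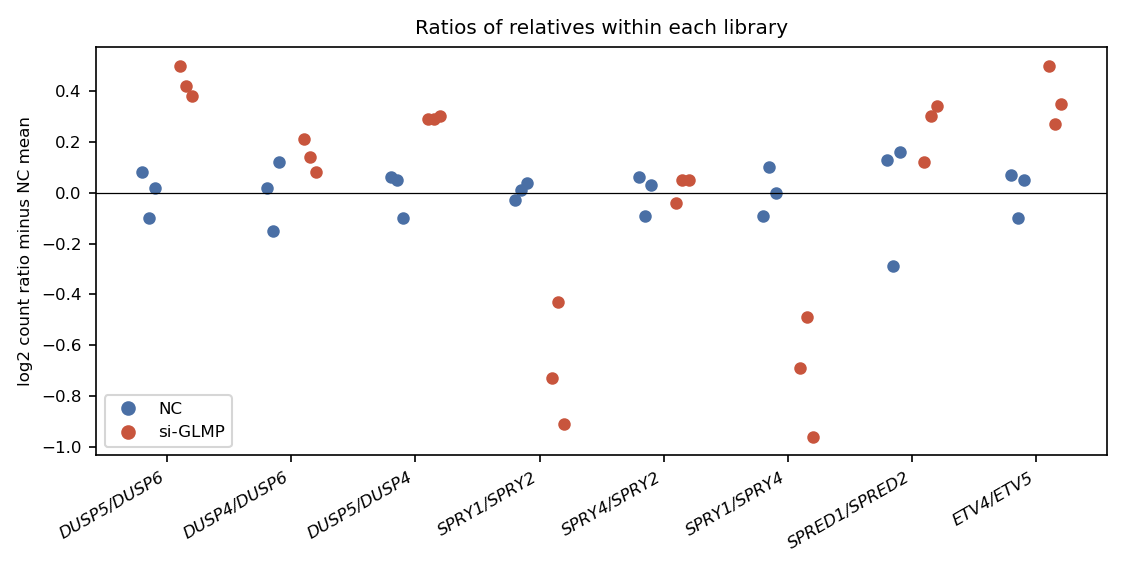
Log2 ratio of the counts of 2 relatives in each library, minus the NC mean of that ratio, for 8 pairs, with NC in blue and si-GLMP in red. DUSP5/DUSP6, DUSP5/DUSP4 and ETV4/ETV5 lie higher in all si-GLMP libraries, SPRY1/SPRY2 and SPRY1/SPRY4 lie lower, and the other 3 pairs overlap.

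Above these genes in the pathway, NRAS and MRAS fell. Of 19 tested genes of the cascade core, from the adaptors to ERK, 2 fell (background 11.3%), 1 rose (background 12.0%) and 16 missed the threshold, and the median log2 fold change was -0.02. NRAS, a RAS GTPase, fell from 352 ± 22.5 to 198 ± 9.55 CPM (SD, n = 3 each), -0.83 on the log2 scale (edgeR: SE 0.07, adjusted p = 3.96e-15). MRAS, a RAS relative that acts in a phosphatase complex on RAF, fell from 4.10 ± 0.335 to 1.96 ± 0.553 CPM (adjusted p by edgeR = 0.000109). SHC1, an adaptor of receptor kinases, rose by 0.32 on the log2 scale, and 7.72% of its exons overlap PYGO2 on the same strand. GAB1, a docking protein of receptor kinases, had 13.8 ± 1.11 CPM under NC and 16.3 ± 0.659 CPM under si-GLMP (SD, n = 3 each) and was not called (edgeR: log2 fold change 0.24, adjusted p = 0.105), but passed with the trend on GC content and length removed (0.0261). NRAS and MRAS were named for their small adjusted p in these data. Their log2 fold changes were further below 0 than that of any of the 10 ERK-induced genes, a difference that was not tested. Over the whole core list the median absolute change was 0.11, beside 0.17 for the 10 and 0.18 over all tested genes. With the trend on GC content and length removed, 2 genes of this list were higher. The count higher over all tested genes then rose from 1910 to 2343.

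Among restraints of RAS and ERK outside the set, 3 of 12 were higher and 4 lower, with a median of -0.01, where 12.0% of all tested genes were higher and 11.3% lower. The remaining SPRED and Sprouty relatives, both low, rose. The log2 fold change was 0.54 for SPRED3 (edgeR adjusted p = 0.00115) and 0.51 for SPRY3 (edgeR adjusted p = 0.0368). The SPRY3 call was lost in 7 of 15 alternative settings, among them the omission of NC replicate 2 or 3 (edgeR adjusted p = 0.0871 and 0.138) or of si-GLMP replicate 2 or 3 (0.216 and 0.0755). SPRED3 went from 8.06 ± 1.3 to 11.7 ± 0.119 CPM (SD, n = 3 each), opposite to SPRED2. ERRFI1, an ERK-induced inhibitor of EGFR, rose by 0.34. DAB2IP and RASAL2, which speed GTP hydrolysis by RAS, had log2 fold changes of -0.53 and -0.30.

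Of the 7 other MAP kinase phosphatases, 4 were higher (2 without NC replicate 3) and 1 lower, with a median of 0.27, beside the same 12.0% and 11.3% of all tested genes. DUSP2, a nuclear phosphatase, rose from 12.1 ± 1.28 to 18.3 ± 1.93 CPM (SD, n = 3 each; edgeR adjusted p = 5.00e-05). DUSP8, a phosphatase of JNK and p38, rose by 0.76, but its pseudogene DUSP8P5 held 233 counts over the NC and 189 over the si-GLMP libraries, so its own value is uncertain. DUSP10, with the same substrates, rose by 0.33 (edgeR adjusted p = 0.0249), a call lost without NC replicate 1 (0.123), NC replicate 3 (0.0520) or si-GLMP replicate 3 (0.0835). DUSP9, a cytoplasmic ERK phosphatase of the DUSP6 group, fell from 66.7 ± 2.84 to 48.7 ± 6.99 CPM (adjusted p by edgeR = 2.73e-05).

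Of 14 other tested genes that ERK induces, 6 were higher and 3 lower, with a median of 0.08, over a background of 12.0% higher and 11.3% lower. PLAUR, the urokinase receptor, rose by 0.72, the cytokine LIF by 0.58 and the receptor kinase EPHA2 by 0.51. EMP1, a membrane protein of epithelia, had -0.74.

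Among the other ETS factors and the regulators of ETV4 and ETV5, 3 of 21 tested genes were higher and 1 lower, with a median of 0.05. The share higher was near the 12.0% of all tested genes, and 11.3% of those were lower. With the trend on GC content and length removed, 7 were higher and 2 lower. In that setting 2343 of the 15900 tested genes were higher and 2009 lower, against 1910 and 1802 in the main fit. ELF3, an epithelial ETS factor, rose from 24.5 ± 1.70 to 42.5 ± 3.02 CPM (SD, n = 3 each), 0.79 on the log2 scale (edgeR: SE 0.09, adjusted p = 2.27e-10). In the annotation 9.23% of its exonic length overlaps other genes on either strand. ERG, a factor of endothelial cells, rose by 1.28 but from only 0.910 to 2.22 CPM. EHF, close to ELF3, rose by 0.25 (edgeR adjusted p = 0.00753), a call lost once si-GLMP replicate 2 was left out, at 0.15 on the log2 scale (0.0899). ERF, a repressor that ERK exports from the nucleus, had a log2 fold change of -0.34. CIC itself, chosen after its values were seen, had 141 ± 5.34 and 143 ± 7.67 CPM (edgeR: log2 fold change 0.02, SE 0.07, adjusted p = 0.890).

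**Figure D5:**
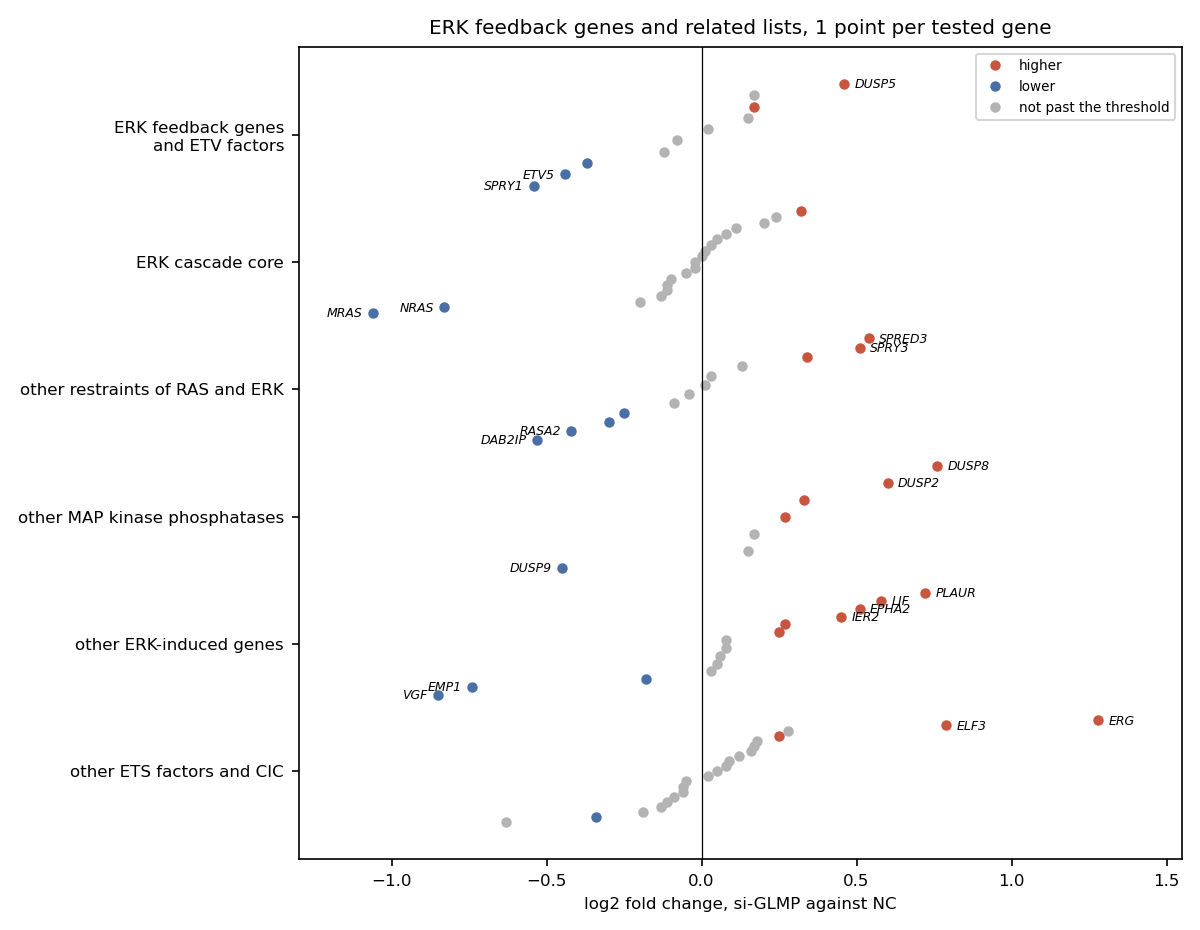
Log2 fold change, si-GLMP against NC, of the 10 ERK feedback and ETV genes and of 5 lists of related genes, with 1 point per tested gene, red where higher and blue where lower at an edgeR adjusted p under 0.05. Each list has points on both sides of 0, with MRAS and NRAS at -1.06 and -0.83 in the core of the cascade.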

How the data were processed

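The authors deposited raw read counts per gene for 6 libraries, whole numbers with no normalization. The submitters' processing notes name HISAT2 and GRCh38 without a version, and say nothing here of the counting tool, annotation or strand setting. All 6 columns were matched to samples by title. Counts were tested with edgeR 4.0.16 (R 4.3.3): filterByExpr with a minimum count of 10, TMM scaling, robust quasi-likelihood fits with group as the only term, and Benjamini-Hochberg adjustment over 15900 genes at 0.05. Standard errors are the log2 fold change over the square root of F. The 95% intervals of fold changes use the normal quantile times this error, so they are somewhat narrower than intervals matched to the F test. A count of 3, the detection floor, is 0.134 to 0.151 CPM. Gene models came from GENCODE 29. Named genes were the 10, GLMP, the paralogs SPRY3, SPRED3 and ETV1, up to 4 genes per list with the smallest adjusted p, and the 2 nearest profiles of each called gene. From the list of the cascade core 2 genes are not reported here and stay out of its counts. The 10 genes and all lists were chosen with earlier results of these data known. On simulated data for si-GLMP against NC (15900 genes), 18 of 50 genes changed 1.3-fold were recovered and 31 of 50 at 1.5-fold. At 2-fold 40 of 50 were recovered and at 3-fold 46 of 50, and 13 of 15700 unchanged genes were called. Only 50 genes were changed at each of these folds, whereas 3712 were called in the data, so recovery there may differ. Alternatives were other scalings and filters, each library left out, the replicate block, DESeq2 1.42.0, limma-voom (limma 3.58.1), removal of mitochondrially encoded genes and removal of a GC and length trend.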

Additional observations from a re-analysis of the deposited data

How the results depend on the processing

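Calls of DUSP5, ETV5 and SPRED2 held in all 15 alternative settings, SPRY1 in 13, DUSP4 in 7 and SPRY4, not called at first, in 4. The count of higher genes among the 10 was 1 rather than 2 with RLE scaling, with no filter on low counts and with mitochondrially encoded genes removed, and ran from 1 to 3 when a library was left out. The count of lower genes ran from 2 to 3. Over all tested genes, leaving out a library gave 1482 to 1788 higher and 1283 to 1660 lower. DUSP6, at 0.02 on the log2 scale, ran from -0.02 (without NC replicate 3) to 0.08 when a library was left out. With the GC and length trend removed (15750 genes had values), 2 genes of the cascade core were higher. Of the ETS list 7 were higher and 2 lower. Calls over all tested genes also rose in that setting, from 1910 to 2343 higher and from 1802 to 2009 lower. The cause was not tested. The other MAP kinase phosphatases had 2 to 4 higher genes when a library was left out, with 2 without NC replicate 3. Over all tested genes 1577 were higher without NC replicate 3, against 1910 in the main fit. With the replicate number as a block, 3 of the 10 were higher and 3 lower. Same-numbered libraries correlated at 0.0388, 0.0263 and 0.00128 in their deviations from the group means. Libraries of unlike number correlated at -0.038 to 0.00963. With so few libraries such values cannot tell if same-numbered ones were handled together, and the labels do not say. Of 33 other named genes, 27 kept direction and side of the threshold throughout. DUSP10, EHF and SPRY3 lost their calls in some settings (SPRY3 in 7, also with no filter, DESeq2 and limma-voom), RAE1 and GAB1 were called with the GC and length trend removed, and CIC, at 0.02, ran from -0.01 to 0.06 when a library was left out (below 0 without NC replicate 3 or si-GLMP replicate 1). Among the 10, SPRY1, with 73 to 135 counts, is the gene most limited by depth.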

Other observations

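Profiles close to those of the called genes were sought among 9247 tested genes with a mean of at least 10 CPM, as the root-mean-square difference in log2 CPM, centred on the NC mean, over the 6 libraries. DUSP5 was nearest to CDC25A, a phosphatase that activates cyclin-dependent kinases (difference 0.0211), which rose from 35.9 to 49.3 CPM (edgeR: log2 fold change 0.46, adjusted p = 1.18e-05), and next to C6orf120 (0.0244). ETV5 was nearest to RSPRY1 (0.0245), which fell from 71.9 to 53.2 CPM, and to DNAJC6 (0.0319), a cofactor in clathrin uncoating. SPRED2 lay nearest to SMIM15 (0.0220) and ANKRD13A (0.0308), which binds ubiquitinated EGFR and fell from 130.0 to 99.5 CPM (edgeR: log2 fold change -0.38, adjusted p = 2.72e-05). SPRY1 had the most distant neighbours, FGD4 (0.0481), an exchange factor for CDC42, and RAVER2 (0.0714). SPRY1 itself had means of only 5.84 CPM (NC) and 4.02 CPM (si-GLMP), below the level asked of candidates. The part of counting error in its distances was not tested. DUSP4 lay nearest to RAE1 (0.0236) and KLHL25 (0.0237), neither of which was called. Such likeness is common: 1718 genes lay within 0.1 of DUSP4, 259 of SPRED2, 235 of DUSP5, 169 of ETV5 and 20 of SPRY1.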
